A study of Mus musculus with 11 samples.

Results

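The genes described here are 38 mouse genes of DNA replication and S phase, chosen by name from the roles of their proteins at replication origins, at replication forks and in the supply of deoxynucleotides. All 38 were found among the 42375 named genes of the count table, and all 38 passed the filter on low counts. They fall into 8 role groups, with 10 genes of origin licensing, 4 of helicase activation, 4 regulators of entry into S phase, 4 polymerase and primase genes, 4 of the sliding clamp and its loader, 3 of Okazaki fragment processing and single-strand binding, 4 of nucleotide supply, and 5 of chromatin and DNA methylation at the fork. RNA was sequenced from bone marrow-derived macrophages (BMDM) of C57BL/6 mice in an M0 or M1 state, where M0 stands for unpolarised and M1 for classically activated macrophages. The cells received a gapmer, a short antisense oligonucleotide that directs RNase H to cut the RNA it pairs with, for 16 hours. It was directed at MERRICAL, a long noncoding RNA, in the KD groups and labelled NS in the others. The design sets KD beside NS within each state, and M1 beside M0 under each gapmer, in 4 groups, of which M1 KD has 2 libraries and M0 NS, M0 KD and M1 NS have 3 each. Every group carried a gapmer, so no untreated cells are compared here. The sources used here do not give the stimulus behind the M1 label, the age and number of the mice, or whether replicates were separate cultures. The p-values therefore reflect spread among libraries that may be technical repeats. The label numbers are 1, 2 and 4 in M0 NS, M0 KD and M1 NS, but 5 and 6 in M1 KD, so whatever these numbers mark cannot be told apart from that group. The level of MERRICAL itself was not analysed here.

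Before S phase, the origin recognition complex with CDC6 and CDT1 loads the ring of MCM2 to MCM7 onto DNA, and CDC45 and the GINS proteins then turn that ring into an active helicase. Cyclin E with its kinase and the E2F transcription factors drive entry into S phase, and E2F factors switch on many of the genes listed here, including MCM, polymerase and nucleotide synthesis genes. Bone marrow-derived macrophages are grown from dividing precursors with macrophage colony-stimulating factor, and classical activation is known to slow their proliferation.

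The 4 promoters are shown because they carry E2F-type sites in the stretch before the start site and hold no annotated exon. They come from RefSeq promoter windows on GRCm38.p6, which run from 250 bases before to 50 bases after each start, and only the 250 bases before the start are printed. Capitals mark the E2F-type letters TTTGGCGC, TTTCGCGC, TTTCCCGC or TTTGCCGC, read on either strand, with overlapping matches counted once. The Mcm6 stretch lies at chr1:128359706-128359955 on the minus strand and holds 2 such sites, of which the first is an overlapping pair on opposite strands. Mcm5 lies at chr8:75109259-75109508 on the plus strand, Pola1 at chrX:93632156-93632405 on the minus strand and Uhrf1 at chr17:56304063-56304312 on the plus strand, each with 1 site.
Mcm6: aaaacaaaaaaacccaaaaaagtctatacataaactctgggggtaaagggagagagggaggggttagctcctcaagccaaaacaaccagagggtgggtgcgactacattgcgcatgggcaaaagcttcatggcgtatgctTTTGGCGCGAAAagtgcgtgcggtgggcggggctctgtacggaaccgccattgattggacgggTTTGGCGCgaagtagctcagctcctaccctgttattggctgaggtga
Mcm5: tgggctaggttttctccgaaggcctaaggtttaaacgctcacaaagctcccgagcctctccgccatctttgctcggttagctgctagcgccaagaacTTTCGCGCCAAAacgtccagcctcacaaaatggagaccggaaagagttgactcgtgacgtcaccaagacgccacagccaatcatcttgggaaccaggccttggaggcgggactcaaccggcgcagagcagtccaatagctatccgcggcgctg
Pola1: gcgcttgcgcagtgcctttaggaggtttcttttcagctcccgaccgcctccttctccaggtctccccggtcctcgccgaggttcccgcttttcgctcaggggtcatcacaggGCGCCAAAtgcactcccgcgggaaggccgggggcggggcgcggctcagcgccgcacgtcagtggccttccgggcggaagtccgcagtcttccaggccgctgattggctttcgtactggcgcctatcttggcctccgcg
Uhrf1: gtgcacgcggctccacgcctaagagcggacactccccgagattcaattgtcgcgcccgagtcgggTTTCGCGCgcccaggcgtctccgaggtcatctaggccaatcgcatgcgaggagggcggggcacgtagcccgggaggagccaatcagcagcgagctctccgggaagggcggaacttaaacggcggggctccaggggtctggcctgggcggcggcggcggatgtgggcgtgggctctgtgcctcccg
Windows were found for 33 of the 38 genes, 41 windows in all, and Gins1, Gins2, Ccne2, Pole and Mcm4 had none. At least 1 E2F-type site stood in 15 of the 41 windows (36.6%), against 2.26% of the 32851 RefSeq promoter windows of the same length. At least 2 sites stood in 5 member windows (12.2%), those of Dnmt1, Mcm3, Mcm6, Mcm7 and Rfc3, against 0.0913% of all windows. The CCAAT box, written CCAAT, matched 58.5% of the member windows and 37.4% of all windows on either strand. The cell cycle homology letters TTTGAA or TTCGAA, known from promoters of mitotic genes, matched 17.1% of member windows and 19.2% of all windows. A match is a description of letters and not a measured binding site.

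Total counts ran from 30040632 to 43250392 per library. Levels are given as CPM, the count relative to a library total scaled with TMM factors, and differences as log2 fold changes from a single edgeR quasi-likelihood fit over all 11 libraries, with Benjamini-Hochberg adjustment over 15024 genes. A gene is called at an adjusted p under 0.05, and each error of a log2 fold change is 1 standard error (SE). All 12 macrophage markers, among them the colony-stimulating factor receptor gene Csf1r and the lysozyme gene Lyz2, were detected in every group. Their summed level was 26890 to 28420 CPM in M0 NS, 22100 to 23180 in M0 KD, 14130 to 16660 in M1 NS and 15700 to 18570 in M1 KD. Lyz2 was the largest part of this sum, averaging 17460 CPM in M0 NS and 5639 in M1 NS. In M1 NS against M0 NS, 5 of the 12 were called higher and 6 lower, against 26.9 and 28.6% of all genes. Emr1 and Cd14 averaged 2118 and 337 CPM in M0 NS, and 4296 and 1492 in M1 NS. Transcripts of 17 neutrophil and granulocyte precursor markers were also present. Their summed level was 1540 to 2663 CPM in M0 NS, 873 to 983 in M0 KD, 269 to 351 in M1 NS, and 240.6 to 241 in M1 KD. Lcn2 did not fall in M1 with the others. It averaged 119 CPM in M0 NS, 49.3 in M0 KD, 136 in M1 NS and 151 in M1 KD, the largest part of both M1 sums. All 17 were detected in each group, although the defining granule genes Elane and Ctsg averaged 4.49 and 3.63 CPM in M0 NS against 0.0187 and 0.315 CPM in M1 NS. The share of counts from mitochondrially encoded genes was 1.01 to 1.13% in M0 NS, 1.27 to 1.44% in M0 KD, 0.485 to 0.886% in M1 NS and 0.519 to 0.72% in M1 KD. Summed over 8 dendritic cell markers, the level was 261 to 348 CPM in M0 NS, 222 to 346 in M0 KD, 968 to 1478 in M1 NS and 1495 to 2140 in M1 KD. Bst2 was the largest part of this sum, averaging 221, 164, 951 and 1392 CPM in that order. In M1 NS against M0 NS, 5 of the 8 log2 fold changes were above 0 and 3 below. Those below were Flt3, Itgax and Siglech, which averaged 4.96, 75.6 and 2.08 CPM in M0 NS and 0.878, 39.5 and 0.525 in M1 NS. The sum of 7 stem and progenitor markers was 18.2 to 25.6 CPM in M0 NS, 18.3 to 25.2 in M0 KD, 4.5 to 6.89 in M1 NS and 7.77 to 8.3 in M1 KD. For 7 erythroid and megakaryocyte markers it was 214 to 300, 185 to 251, 23.6 to 60.8 and 127 to 145 CPM in the same order, and for 10 lymphoid markers 13.4 to 22.7, 9.04 to 20.3, 1.75 to 4.59 and 8.62 to 11.1 CPM. A single gene was the largest part of each sum. Pf4 averaged 248, 197, 35 and 117 CPM in that order, and Cd4 18.1, 12.6, 1.51 and 6.69. In M1 NS against M0 NS, 1 of the 7 erythroid and megakaryocyte markers was called, as lower. Of the 5 lymphoid markers tested, 1 was higher and 2 lower. The part of any of these in the differences below was not tested. In bulk RNA, fewer cells in S phase and less RNA per cell cannot be told apart.

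Within M0 NS, the 38 genes spanned a wide range of levels when divided by exon length. This length joins all annotated exons of a gene, not those of 1 transcript. Rankings and ratios between genes therefore depend on it, but the change of a ratio of 2 named genes between groups does not. Pcna, which encodes the sliding clamp PCNA that also serves in DNA repair, stood highest at 146 CPM per kb of exon. Dnmt1, the maintenance DNA methyltransferase, followed at 15.6, Mcm6 at 14.4, E2f1 at 11.8 and Mcm3 at 10.3. The lowest were Orc1 at 0.388, Pole at 0.628 and Tyms at 0.662 CPM per kb. The 6 genes of the MCM ring, whose products assemble in equal numbers, were unequal in transcript level per length. The joined exons span 6956 bases in Mcm2 and 3589 to 4666 in Mcm3 to Mcm7. The place of Mcm2 and the spread given here depend on these lengths. The highest of the 6 exceeded the lowest 3.31- to 3.76-fold per length in the M0 NS libraries, 3.61- to 4.32-fold in M0 KD, 3.59- to 6.37-fold in M1 NS, with the highest value in library 4, and 1.83- to 1.88-fold in M1 KD. Mcm6 was the highest and Mcm2 the lowest in every M0 library, while in both M1 KD libraries Mcm7 was the highest and Mcm5 the lowest. By group mean, Mcm6 was the highest and Mcm2 the lowest in M1 NS too (6.12 and 1.59 CPM per kb). In M1 NS library 2, however, Mcm5 (32.2 CPM) exceeded Mcm6 (31.95 CPM). The narrower spread of M1 KD came with a different order of the 6 subunits from that in M0.

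**Figure D1:**
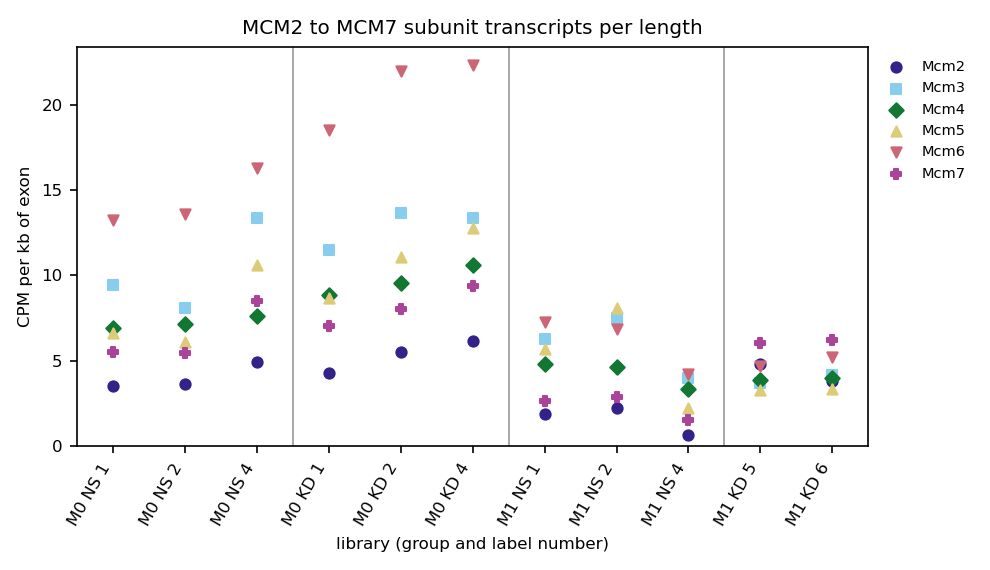
CPM per kb of exon (vertical axis) of Mcm2 to Mcm7 in each of the 11 libraries (horizontal axis, group and label number), 1 point per gene and library. Mcm6 leads in all M0 libraries, and Mcm7 leads in both M1 KD libraries, where the 6 genes lie within 1.88-fold of each other.

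Libraries of a group differed in these genes together. The M1 NS library numbered 4 was the lowest of its group for 31 of the 38 genes, against 39.7% of all genes tested, and the median of the genes' log2 ratios to the mean of libraries 1 and 2 was -0.53, against -0.0025 over all genes. Its ratios were lowest for Pole (-2.36), the leading-strand polymerase gene, for Mcm10 (-2.32), a helicase activation factor, and for Mcm5 (-1.63) and Mcm2 (-1.61). In the M0 NS group, library 4 was the highest for 33 of the 38 genes, against 39.9% of all genes. In M0 KD, library 4 was the highest for 28 genes, against 40.1% of all genes, and library 1 was the lowest for 31, against 33.2%. Several results are given below with and without one of these libraries.

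**Figure D2:**
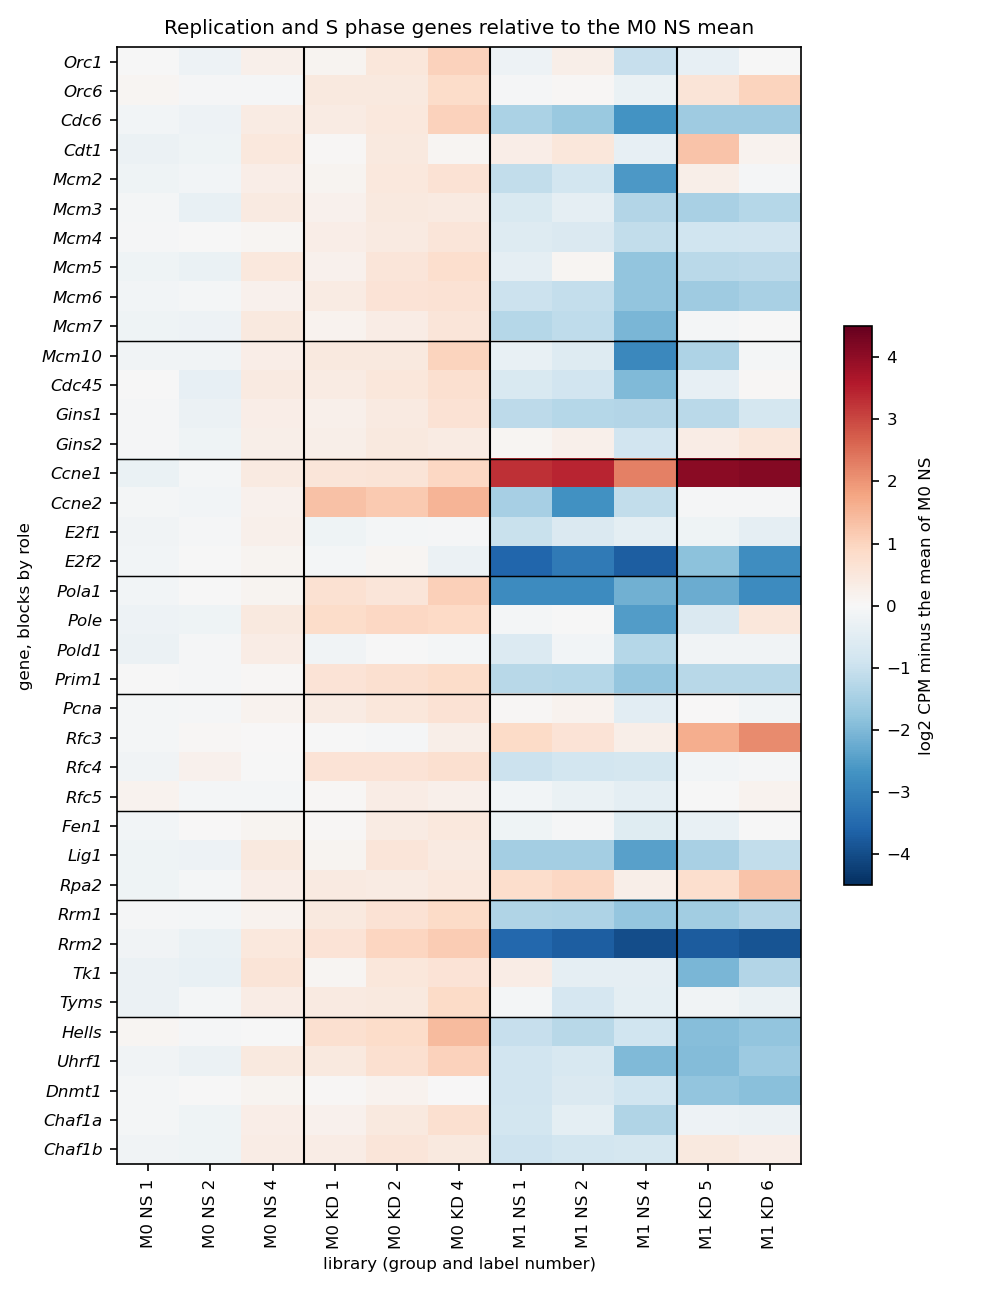
Log2 CPM of the 38 genes (rows, in blocks by role) in the 11 libraries (columns), minus the mean log2 CPM of the 3 M0 NS libraries, with red above and blue below that mean. Most rows are blue in M1, with Ccne1, Rfc3 and Rpa2 red in all M1 libraries, and the M1 NS library numbered 4 is the lowest of its group for 31 genes.

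Replication transcripts were mostly lower in M1 than in M0 cells. In M1 NS against M0 NS, 23 of the 38 genes fell and 3 rose, with a median log2 fold change of -0.83, against -0.038 over all genes tested. The largest falls were those of Rrm2 (-3.77), the inducible small subunit of ribonucleotide reductase, E2f2 (-3.48), an activating E2F factor, and Pola1 (-2.57), the catalytic subunit of the polymerase that starts new strands. The 3 that rose were Ccne1 (3.04), one of the cyclin E genes, Rpa2 (0.67), a subunit of the single-strand binding protein RPA, and Rfc3 (0.59), a clamp loader subunit. Of all genes tested, 28.6% were called lower and 26.9% higher in this comparison, 55.5% in all. The log2 value was above 0 for 4 of the 38 genes and for 48.3% of all genes. All M1 NS libraries lay below all M0 NS libraries for 24 of the 38 genes, against 32.8% of all genes, and above them for 2, against 28.6%. Without M1 NS 4, 22 genes were lower and 3 higher, and without M0 NS 4, 21 were lower and 3 higher.

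Under the MERRICAL gapmer, M1 KD against M0 KD gave a like count from other libraries, with 21 genes lower and 3 higher and a median of -0.82, against -0.11 over all genes. Of all genes, 31.4% were called lower and 26.9% higher, 58.3% in all. The log2 value was above 0 for 6 of the 38 genes and 46.5% of all genes. The 17 genes lower in both comparisons are 17 of the 23 and 17 of the 21, and Ccne1, Rpa2 and Rfc3 were the 3 higher in both. Of all genes tested, 18.8% were lower in both and 17.5% higher in both. The 28 genes with all M1 KD libraries below all M0 KD libraries compare with 40.6% of all genes, and the 3 above with 34.4%. Leaving out 1 library at a time gave 18 to 25 lower and 2 to 3 higher. With library size as the only scaling, the median of all genes shifted by -0.39 in M1 NS against M0 NS and by -0.48 in M1 KD against M0 KD. Under that scaling 1 gene (Ccne1) was higher and 30 were lower in the first comparison, against 15.6 and 42.9% of all genes, and 2 were higher and 30 lower in the second, against 15.8 and 47.1%. The Rpa2 and Rfc3 calls were then lost in the first comparison, with log2 fold changes of 0.27 (adjusted p = 0.258) and 0.20 (adjusted p = 0.323), and so was the Rpa2 call in the second, at 0.15 (adjusted p = 0.58).

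**Figure D3:**
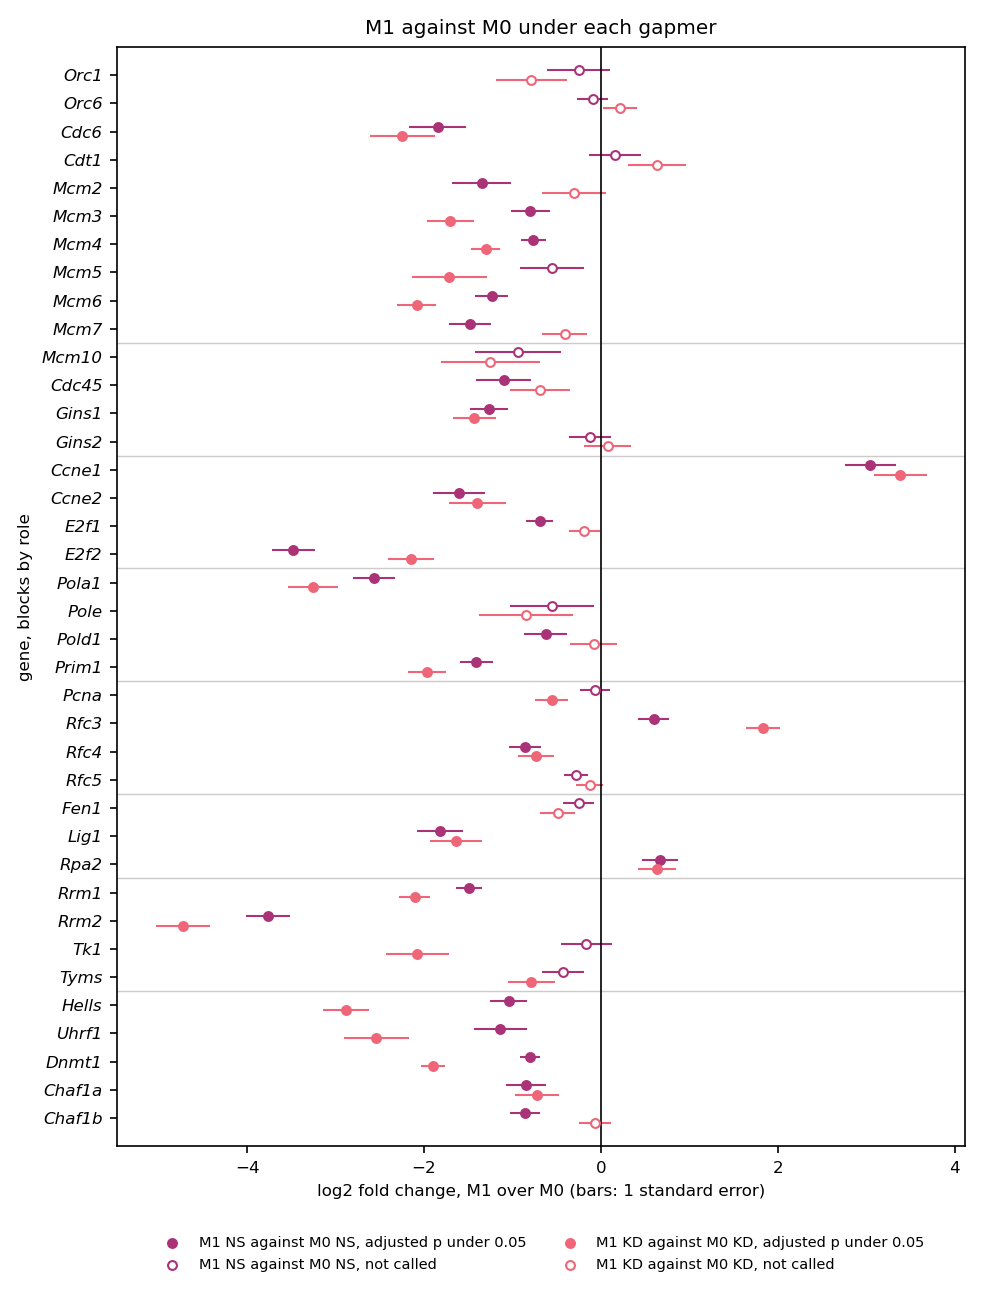
Log2 fold change of M1 over M0 (horizontal axis) for each of the 38 genes (vertical axis, in blocks by role) under the NS gapmer and under the MERRICAL gapmer. Filled points have an adjusted p under 0.05 and bars show 1 standard error, and Ccne1, Rfc3 and Rpa2 are the only filled points to the right of 0.

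The origin licensing genes carry the largest group. In M1 NS, 6 of the 10 fell (Cdc6, Mcm2, Mcm3, Mcm4, Mcm6 and Mcm7), none rose, and their median was -0.78. Mcm6 read 61.8, 63.5 and 76.2 CPM in M0 NS libraries, 86.5, 103 and 104 in M0 KD, 34, 31.9 and 19.7 in M1 NS, and 21.9 and 24.2 in M1 KD. Its M1 libraries lay below all M0 libraries, with a fold change (log2) of -1.24 ± 0.18 SE, adjusted p = 0.000112 in M1 NS against M0 NS and -2.08 ± 0.22 SE, adjusted p = 7.19e-06 in M1 KD against M0 KD. Mcm2 read 24.5, 25.2 and 34.4 CPM in M0 NS libraries, 29.9, 38.2 and 43 in M0 KD, 12.9, 15.6 and 4.62 in M1 NS, and 33.3 and 26.6 in M1 KD. M1 NS was below M0 NS (-1.35 ± 0.34 SE, adjusted p = 0.00453), whereas M1 KD overlapped M0 KD (-0.30 ± 0.37 SE, adjusted p = 0.495) and stood above M1 NS (1.45 ± 0.37 SE, adjusted p = 0.00892). Mcm7 read 24.4, 24 and 37.7 CPM in M0 NS libraries, 31.1, 35.5 and 41.4 in M0 KD, 11.6, 12.6 and 6.79 in M1 NS, and 26.6 and 27.6 in M1 KD. It was lower in M1 NS than in M0 NS (-1.48 ± 0.24 SE, adjusted p = 0.000189) and higher in M1 KD than in M1 NS (1.4 ± 0.26 SE, adjusted p = 0.00138). Exons of Mcm7 overlap those of Ap4m1 and Cops6 on the other strand over 7.25 and 1.45% of their length, and since the sources used here do not give the strand setting of the counting, reads in these stretches cannot be assigned to one gene.

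Cdt1, the loading factor that is destroyed in S phase, read 18.9, 20.1 and 31.6 CPM in M0 NS libraries, 23.7, 31 and 24.4 in M0 KD, 28.4, 32.9 and 17.8 in M1 NS, and 55.6 and 25.8 in M1 KD. Its groups overlapped in M1 NS against M0 NS (0.16 ± 0.30 SE, adjusted p = 0.671), and the 2 M1 KD libraries lay apart, one above all M0 libraries and one within their range. Orc6, a subunit of the origin recognition complex, read 6.26, 5.72 and 5.66 CPM in M0 NS libraries, 7.89, 8.05 and 10.4 in M0 KD, 5.6, 6.14 and 4.82 in M1 NS, and 8.78 and 11.6 in M1 KD. Its level in M1 NS overlapped M0 NS (-0.0939 ± 0.18 SE, adjusted p = 0.677), and M1 KD lay above M1 NS (0.89 ± 0.19 SE, adjusted p = 0.00417). Exons of Vps35 on the other strand, at a mean of 195 CPM, cover 6.93% of the Orc6 exons, so the limit given for Mcm7 holds for Orc6 too. Cdc6, the loader of the MCM ring, was the licensing gene with the largest fall, -1.85 ± 0.32 SE, adjusted p = 0.000353 in M1 NS and -2.24 ± 0.37 SE, adjusted p = 0.000234 in M1 KD against M0 KD. Orc1 and Cdt1 were called in no comparison, and Mcm5 was called only in M1 KD against M0 KD, as lower (-1.71 ± 0.43 SE, adjusted p = 0.00426), while Mcm3 and Mcm4 were lower in both M1 groups against M0 and called in no gapmer comparison. Mcm3 lost its call in M1 NS against M0 NS without M0 NS library 4, at -0.56 (adjusted p = 0.051).

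Of the 4 helicase activation genes, Cdc45 and Gins1 fell in M1 NS and Mcm10 and Gins2 were not called. Gins1, a subunit of the GINS complex, read 4.93, 4.25 and 6.31 CPM in M0 NS libraries, 6.04, 6.7 and 8.04 in M0 KD, 2.27, 2.1 and 2.06 in M1 NS, and 2.19 and 2.96 in M1 KD. All its M1 libraries lay below all M0 libraries (-1.27 ± 0.22 SE, adjusted p = 0.000314 in M1 NS against M0 NS and -1.43 ± 0.25 SE, adjusted p = 0.000325 in M1 KD against M0 KD). Gins2 read 9.99, 9.06 and 12.7 CPM in M0 NS libraries, 12.6, 14.1 and 13.6 in M0 KD, 11.3, 12.2 and 5.71 in M1 NS, and 13.2 and 15.1 in M1 KD, with overlapping groups in both comparisons of M1 with M0. Exons of Gse1 on the other strand cover 67.3% of the Gins2 exons, so the Gins2 level is uncertain. Cdc45 was at -1.1 ± 0.31 SE, adjusted p = 0.00864 in M1 NS, and in M1 KD against M1 NS it reached 0.91 ± 0.34 SE, adjusted p = 0.051, outside the threshold. Mcm10, at -0.94 ± 0.49 SE, adjusted p = 0.125 in M1 NS, had the widest SE of the 38 genes in that comparison, with 5.27, 4.43 and 0.889 CPM in the M1 NS libraries.

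The regulators of S phase entry split into a rise of one cyclin E gene and a fall of the other. Ccne1 read 2.93, 3.42 and 4.74 CPM in M0 NS libraries, 5.35, 5.47 and 6.92 in M0 KD, 35.3, 39.1 and 17.3 in M1 NS, and 59.8 and 64 in M1 KD. Every M1 library stood above every M0 library, and the log2 value was 3.04 ± 0.29 SE, adjusted p = 2.59e-06 in M1 NS and 3.38 ± 0.30 SE, adjusted p = 1.68e-06 in M1 KD against M0 KD. Ccne2 read 4, 3.9 and 4.81 CPM in M0 NS libraries, 10.5, 9.62 and 12.2 in M0 KD, 1.51, 0.633 and 1.95 in M1 NS, and 4.12 and 4.06 in M1 KD. It fell by contrast in M1 NS (-1.61 ± 0.30 SE, adjusted p = 0.000593) and in M1 KD against M0 KD (-1.4 ± 0.32 SE, adjusted p = 0.00246). The per-length ratio of Ccne1 to Ccne2 was 0.962 to 1.29 in the M0 NS libraries, 0.668 to 0.747 in M0 KD, 11.7 to 81 in M1 NS and 19.1 to 20.7 in M1 KD. The highest of these came from M1 NS library 2, where Ccne2 stood at 0.633 CPM. Exons of Ints8 on the other strand, at a mean of 22.2 CPM, cover 17.4% of the Ccne2 exons, so the Ccne2 level is uncertain.

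E2f1, an activating E2F factor, read 33, 35.3 and 43 CPM in M0 NS libraries, 31.9, 34.5 and 35.5 in M0 KD, 18.5, 23.4 and 27.1 in M1 NS, and 32 and 27.6 in M1 KD. It was lower in M1 NS (-0.69 ± 0.15 SE, adjusted p = 0.00215), and in M1 KD against M0 KD its groups overlapped (-0.19 ± 0.17 SE, adjusted p = 0.368). E2f2 read 14.4, 15.6 and 17.1 CPM in M0 NS libraries, 14.7, 16.7 and 13.1 in M0 KD, 1.32, 1.74 and 1.2 in M1 NS, and 4.36 and 2.27 in M1 KD. The fall of E2f2 was the second largest of the 38 genes in M1 NS (-3.48 ± 0.25 SE, adjusted p = 2.56e-07) and was -2.15 ± 0.26 SE, adjusted p = 2.29e-05 in M1 KD against M0 KD. Per length, E2f1 exceeded E2f2 by 3.5- to 3.9-fold in M0 NS, 3.19- to 4.2-fold in M0 KD, 20.8- to 34.8-fold in M1 NS and 11.4- to 18.8-fold in M1 KD.

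**Figure D4:**
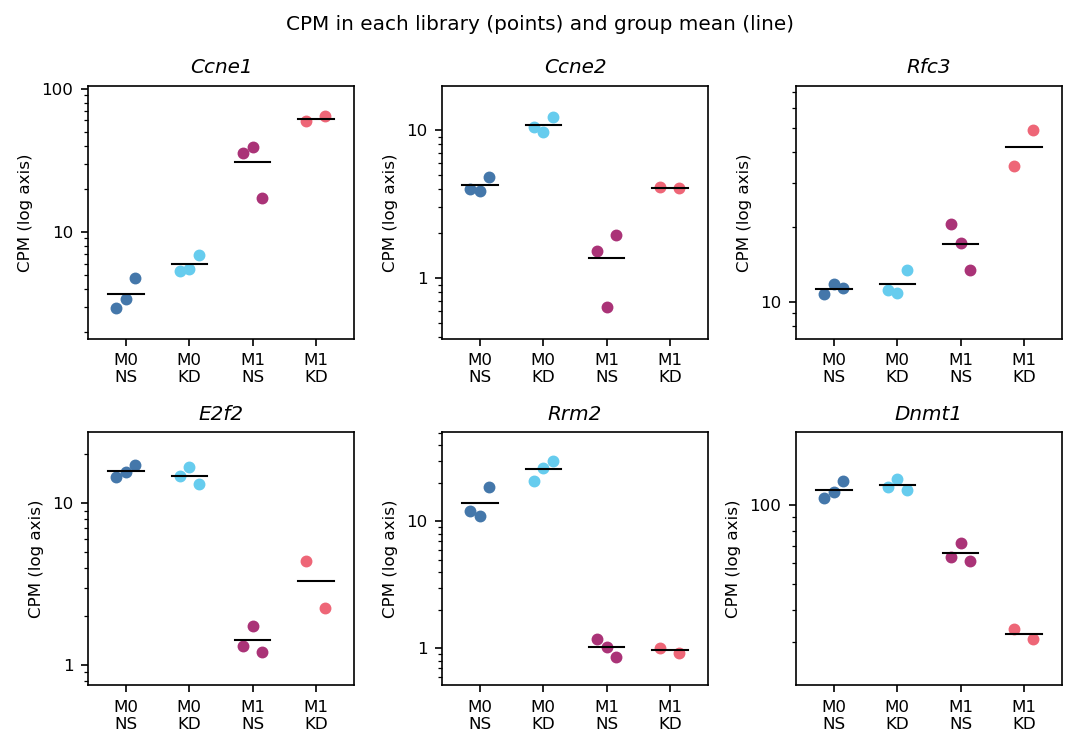
CPM (log axes) of Ccne1, Ccne2, Rfc3, E2f2, Rrm2 and Dnmt1 in each library (points), with the group mean as a line, for the 4 groups on the horizontal axis. Ccne1 and Rfc3 stand highest in M1 KD, E2f2 and Rrm2 are low in both M1 groups, and Dnmt1 is lowest in M1 KD.

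Among the polymerases, Pola1 read 11.3, 12.1 and 13.4 CPM in M0 NS libraries, 19.5, 17.8 and 25.7 in M0 KD, 1.71, 1.7 and 2.75 in M1 NS, and 2.63 and 1.72 in M1 KD. All M1 libraries were below all M0 libraries (-2.57 ± 0.24 SE, adjusted p = 2.21e-06 in M1 NS and -3.26 ± 0.28 SE, adjusted p = 1.48e-06 in M1 KD against M0 KD). Prim1, the catalytic subunit of primase, read 5.19, 5.1 and 5.45 CPM in M0 NS libraries, 8.02, 8.68 and 9.26 in M0 KD, 2.19, 2.18 and 1.58 in M1 NS, and 2.19 and 2.23 in M1 KD. It fell in M1 NS (-1.41 ± 0.18 SE, adjusted p = 3.65e-05) and in M1 KD against M0 KD (-1.97 ± 0.21 SE, adjusted p = 8.4e-06). Transcripts of both catalytic subunits of primer synthesis were thus lower. Pold1, the lagging-strand polymerase subunit, read 16.3, 18.9 and 24.9 CPM in M0 NS libraries, 17.8, 19.3 and 18.8 in M0 KD, 12.8, 18.3 and 8.03 in M1 NS, and 17.5 and 17.7 in M1 KD. The fall of Pold1 was small (-0.62 ± 0.24 SE, adjusted p = 0.0449) and its ranges overlapped. That call was lost with DESeq2 and RLE scaling, in the fit of the compared groups alone, with the replicate block, and on leaving out any library other than M0 NS 1 and M1 NS 2, with values from -0.36 (adjusted p = 0.135) to -0.66 (adjusted p = 0.0706). Pole was called in neither comparison of M1 with M0 (-0.55 ± 0.48 SE, adjusted p = 0.349 in M1 NS).

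Pcna read 329, 333 and 389 CPM in M0 NS libraries, 454, 492 and 547 in M0 KD, 365, 385 and 253 in M1 NS, and 355 and 322 in M1 KD. M1 NS overlapped M0 NS (-0.0684 ± 0.17 SE, adjusted p = 0.752), and M1 KD lay below M0 KD (-0.56 ± 0.19 SE, adjusted p = 0.0244), a call that was lost without M0 KD 2, M0 KD 4, M1 KD 5 or M1 KD 6, with values from -0.49 (adjusted p = 0.0725) to -0.64 (adjusted p = 0.0562). Reads of the Pcna-ps2 pseudogene averaged 1.53 CPM. Rfc3 read 10.7, 11.8 and 11.3 CPM in M0 NS libraries, 11.2, 10.8 and 13.4 in M0 KD, 20.4, 17.2 and 13.4 in M1 NS, and 35.1 and 48.9 in M1 KD. It rose in M1 NS (0.59 ± 0.17 SE, adjusted p = 0.0117) and in M1 KD against M0 KD (1.83 ± 0.19 SE, adjusted p = 6.39e-06), and the first call was lost without M1 NS 1, at 0.44 (adjusted p = 0.0623). Rfc4, another subunit of the same loader, read 3.1, 3.93 and 3.45 CPM in M0 NS libraries, 5.3, 5.3 and 5.7 in M0 KD, 1.79, 1.98 and 2.01 in M1 NS, and 3.18 and 3.36 in M1 KD. It went the other way, lower in M1 NS (-0.86 ± 0.18 SE, adjusted p = 0.00169) and in M1 KD against M0 KD (-0.73 ± 0.20 SE, adjusted p = 0.00794). With no filter on low counts the latter call was lost, at -0.74 (adjusted p = 0.0532). The ratio of Rfc3 to Rfc4 per length was 1.27 to 1.47 in M0 NS, 0.868 to 0.997 in M0 KD, 2.84 to 4.84 in M1 NS and 4.69 to 6.17 in M1 KD. Rfc5 was called in no comparison, and exons of Eif4a2 and Wsb2 on the other strand cover 12.7% of Rfc4 and 10.7% of Rfc5. Eif4a2 averaged 194 CPM and Wsb2 110 CPM, so the levels of Rfc4 and Rfc5 are uncertain.

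Lig1, the ligase that joins Okazaki fragments, read 23.4, 22.9 and 36.5 CPM in M0 NS libraries, 29.5, 39.2 and 36.1 in M0 KD, 9.27, 9.38 and 4.93 in M1 NS, and 9.77 and 12.7 in M1 KD. It fell in M1 NS (-1.82 ± 0.26 SE, adjusted p = 7.75e-05) and in M1 KD against M0 KD (-1.64 ± 0.29 SE, adjusted p = 0.000448). Rpa2 read 8.94, 9.64 and 12.7 CPM in M0 NS libraries, 13.8, 13.3 and 14.4 in M0 KD, 18, 19.4 and 12.4 in M1 NS, and 17.6 and 25.3 in M1 KD. The rise of Rpa2 in M1 NS (0.67 ± 0.20 SE, adjusted p = 0.0131) came with overlapping ranges, since M1 NS library 4 lay below the highest M0 NS library. It was lost without M0 NS 1, at 0.57 (adjusted p = 0.0589), or without M1 NS 2, at 0.54 (adjusted p = 0.0501). Its rise in M1 KD against M0 KD (0.63 ± 0.22 SE, adjusted p = 0.0252) was lost without M0 KD 1, at 0.63 (adjusted p = 0.0588), M0 KD 2, at 0.61 (adjusted p = 0.0664), or M1 KD 6, at 0.35 (adjusted p = 0.283). Fen1, the flap endonuclease, was called in no comparison, and exons of Gm10143 on the other strand cover 78.8% of its exons.

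Nucleotide supply held the largest fall of all 38 genes. Rrm2 read 12.1, 11.1 and 18.7 CPM in M0 NS libraries, 20.7, 26.4 and 29.96 in M0 KD, 1.18, 1.03 and 0.86 in M1 NS, and 1.01 and 0.914 in M1 KD. All M1 libraries were below all M0 libraries, at -3.77 ± 0.25 SE, adjusted p = 1.61e-07 in M1 NS and -4.73 ± 0.31 SE, adjusted p = 1.63e-07 in M1 KD against M0 KD. Its partner Rrm1, the large subunit, read 39.8, 38.9 and 46.3 CPM in M0 NS libraries, 57, 65 and 75.4 in M0 KD, 16.4, 15.7 and 12.5 in M1 NS, and 14.1 and 16.6 in M1 KD. Rrm1 fell too (-1.49 ± 0.15 SE, adjusted p = 4.4e-06 in M1 NS and -2.1 ± 0.18 SE, adjusted p = 1.15e-06 in M1 KD against M0 KD), and the ratio of Rrm1 to Rrm2 per length was 0.623 to 0.884 in M0 NS, 0.618 to 0.693 in M0 KD, 3.51 to 3.83 in M1 NS and 3.48 to 4.56 in M1 KD. Tk1, the thymidine kinase of the salvage route, read 12.2, 11.6 and 21.3 CPM in M0 NS libraries, 15.5, 20.5 and 22 in M0 KD, 18.4, 10.9 and 10.9 in M1 NS, and 3.46 and 5.78 in M1 KD. M1 NS overlapped M0 NS (-0.16 ± 0.29 SE, adjusted p = 0.651), whereas M1 KD lay below both M0 KD (-2.07 ± 0.35 SE, adjusted p = 0.000303) and M1 NS (-1.55 ± 0.35 SE, adjusted p = 0.00477). Tyms, thymidylate synthase, was not called in M1 NS (-0.43 ± 0.24 SE, adjusted p = 0.146) and was lower in M1 KD against M0 KD (-0.79 ± 0.27 SE, adjusted p = 0.0232), a call lost without M0 KD 4, at -0.63 (adjusted p = 0.0815), M1 KD 5, at -0.87 (adjusted p = 0.0653), or M1 KD 6, at -0.72 (adjusted p = 0.114).

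All 5 genes of chromatin and methylation at the fork fell in M1 NS, with log2 fold changes from -1.14 to -0.8. Dnmt1 read 107, 112 and 124 CPM in M0 NS libraries, 118, 127 and 115 in M0 KD, 63.6, 72.1 and 61.5 in M1 NS, and 33.6 and 30.9 in M1 KD. M0 NS and M0 KD overlapped, M1 NS lay below M0 NS (-0.80 ± 0.11 SE, adjusted p = 6.67e-05) and M1 KD lay below M1 NS (-1.03 ± 0.13 SE, adjusted p = 0.000132). Uhrf1, which guides DNMT1 to newly copied DNA, read 11.3, 10.4 and 17.1 CPM in M0 NS libraries, 17.1, 20.9 and 25.8 in M0 KD, 6.95, 7.6 and 3.15 in M1 NS, and 3.27 and 4.06 in M1 KD. It fell in M1 NS (-1.14 ± 0.30 SE, adjusted p = 0.00636) and in M1 KD against M0 KD (-2.54 ± 0.37 SE, adjusted p = 8.72e-05). Hells, a chromatin remodeller linked to DNA methylation, read 5.63, 5.1 and 5.24 CPM in M0 NS libraries, 8.69, 9.48 and 14.2 in M0 KD, 2.6, 2.26 and 2.87 in M1 NS, and 1.4 and 1.54 in M1 KD. Its M1 KD libraries lay below M1 NS (-0.82 ± 0.25 SE, adjusted p = 0.0254), and its fall was -1.04 ± 0.21 SE, adjusted p = 0.00114 in M1 NS and -2.88 ± 0.26 SE, adjusted p = 2.21e-06 in M1 KD against M0 KD. Chaf1b, a subunit of the histone chaperone CAF-1, read 7.64, 7.45 and 10.7 CPM in M0 NS libraries, 10.6, 12.3 and 11.6 in M0 KD, 4.48, 4.83 and 4.9 in M1 NS, and 11.6 and 10.4 in M1 KD. It fell in M1 NS (-0.86 ± 0.17 SE, adjusted p = 0.000867) and stood in M1 KD above M1 NS (1.22 ± 0.18 SE, adjusted p = 0.000406) and overlapped M0 KD (-0.0651 ± 0.18 SE, adjusted p = 0.777). Chaf1a, its partner in CAF-1, fell in M1 NS (-0.85 ± 0.22 SE, adjusted p = 0.00644) and in M1 KD against M0 KD (-0.72 ± 0.25 SE, adjusted p = 0.0262), where the call was lost without M0 KD 4, at -0.57 (adjusted p = 0.0914), M1 KD 5, at -0.76 (adjusted p = 0.0865), or M1 KD 6, at -0.70 (adjusted p = 0.11). Exons of Ubxn6 on the other strand, at a mean of 66.3 CPM, cover 52.5% of the Chaf1a exons, so the Chaf1a level is uncertain.

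In M0 cells the gapmer comparison asks whether transcripts differ after the MERRICAL gapmer in the absence of activation. No member was called in M0 KD against M0 NS, as was no gene of the 15024 tested (0%). The values lay mostly on one side: 35 of the 38 log2 fold changes were above 0, against 50.4% of all genes, with a median of 0.47, against 0.0034. Over the alternative fits, among them those with each library left out in turn, this median ran from 0.35 to 0.61. The highest were those of Ccne2 (1.35 ± 0.28 SE, adjusted p = 0.222), Hells (1.02 ± 0.20 SE, adjusted p = 0.205), Rrm2 (0.88 ± 0.21 SE, adjusted p = 0.222), Pole (0.86 ± 0.47 SE, adjusted p = 0.439) and Pola1 (0.77 ± 0.21 SE, adjusted p = 0.253), and the 3 below 0 were E2f1 (-0.13), Pold1 (-0.10) and E2f2 (-0.0833). All M0 KD libraries stood above all M0 NS libraries for 18 of the 38 genes, against 17.2% of all genes, and below for none, against 17.9%. At an unadjusted p under 0.05, edgeR gave 15 of the 38 genes and 1947 of all genes (13%), of which 894 (5.95% of all genes) were higher.

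Other fits called some of these genes higher and none lower. DESeq2 called 7 of the 38 higher, against 0.779% of all genes, and edgeR with no filter on low counts called 8, against 0.707%. Of all genes, 0.692, 0.608 and 4.08% were lower with DESeq2, with no filter and with the M0 groups alone. With only the 6 M0 libraries in the edgeR fit, 11 were higher, against 3.98% of all genes, namely Ccne2, Prim1, Rrm1, Hells, Pola1, Mcm6, Mcm4, Pcna, Pole, Rfc4 and Orc6. Ccne2, Hells, Pola1 and Rrm1 were called in all 3 of these fits, where Ccne2 had adjusted p-values of 0.000174, 1.62e-05 and 0.0121. The main fit, DESeq2 and the fit with no filter all use the 11 libraries of all 4 groups. Without M1 NS library 4, the main fit still called none of the 38 genes in M0, and 1 gene in all. Why the fits differ in their calls was not tested. In the same comparison all 17 neutrophil markers had a log2 fold change below 0, with a median of -1.19, and all 11 mitochondrially encoded genes tested were above 0, with a median of 0.47. M0 NS libraries enter this comparison and M1 NS against M0 NS alike, so the values of these comparisons are not independent.

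In M1 cells the same gapmer comparison called 9 of the 38 genes higher and 3 lower in M1 KD against M1 NS. The 9 that rose were Ccne2 (1.55), Mcm2 (1.45), Mcm7 (1.4), Rfc3 (1.3), E2f2 (1.25), Chaf1b (1.22), Ccne1 (1.02), Orc6 (0.89) and Rfc4 (0.76), and the 3 that fell were Tk1 (-1.55), Dnmt1 (-1.03) and Hells (-0.82). Of all genes, 17.6% were called higher and 19.2% lower, 36.8% in all, and the 12 of 38 called here are near that last share. Of the 38 values, 29 were above 0, against 50% of all genes. The median of the 38 genes was 0.34, against 0.001. Among the regulators of S phase entry 3 of 4 rose (Ccne1 at 1.02 ± 0.28 SE, adjusted p = 0.0148, Ccne2 at 1.55 ± 0.32 SE, adjusted p = 0.00305 and E2f2 at 1.25 ± 0.27 SE, adjusted p = 0.00356), and E2f1 was not called (0.38 ± 0.17 SE, adjusted p = 0.103). Of the licensing genes 3 of 10 rose, and within the MCM ring Mcm2 and Mcm7 rose while Mcm3, Mcm4, Mcm5 and Mcm6 had values of -0.59, -0.12, -0.68 and -0.31 and were not called. No polymerase, primase, helicase activation or Okazaki fragment gene was called in this fit. Cdc45 was called higher with DESeq2 (0.94, adjusted p = 0.0249), limma-trend, RLE and upper-quartile scaling, a minimum count of 50, no filter, and without M0 NS 4 or M1 NS 1. Gins2 (0.55, adjusted p = 0.049) and Lig1 (0.52, adjusted p = 0.041) were called higher with no filter, and Pold1 without M1 NS 2 (0.75, adjusted p = 0.0268). All M1 KD libraries stood above all M1 NS libraries for 16 genes, against 26.1% of all genes, and below for 3, against 26.3%. Of the 17 neutrophil markers 2 were called higher and 3 lower in the same comparison, with 6 values above 0 and a median of -0.080, and their part was not tested.

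The M1 KD group has 2 libraries, and 6 of the 12 calls were lost under at least 1 alternative. Without M1 KD 5, calls were lost for Mcm2 (1.27, adjusted p = 0.0747), Ccne1 (1.06, adjusted p = 0.0546), E2f2 (0.68, adjusted p = 0.0838), Tk1 (-1.22, adjusted p = 0.0616) and Hells (-0.76, adjusted p = 0.134), which left 6 higher and 1 lower, against 10.4 and 12.5% of all genes. Without M1 KD 6, they were lost for Ccne1 (0.97, adjusted p = 0.067), Rfc4 (0.72, adjusted p = 0.0519) and Hells (-0.89, adjusted p = 0.0699), and Cdt1 was gained as higher (1.08, adjusted p = 0.0299). The Hells call was also lost without M1 NS 1, at -0.81 (adjusted p = 0.0539). Without M1 NS 4, the library that stands apart, 10 genes were higher and 6 lower, against 20.3 and 18.5% of all genes: E2f1 (0.55, adjusted p = 0.0213) was gained as higher, Mcm3 (-0.77, adjusted p = 0.0161), Mcm5 (-1.01, adjusted p = 0.0154), Mcm6 (-0.47, adjusted p = 0.0214) and Uhrf1 (-0.95, adjusted p = 0.0179) were gained as lower, and the Hells call was lost (-0.69, adjusted p = 0.0626). Upper-quartile scaling, which moved the median of all genes by 0.15, gave 13 higher and 2 lower, against 23 and 14.5% of all genes. Orc6, Mcm7, Ccne2, Rfc3, Chaf1b and Dnmt1 were called under each alternative run. In the fit, an arm with a single library left is assumed to vary like the other groups.

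**Figure D5:**
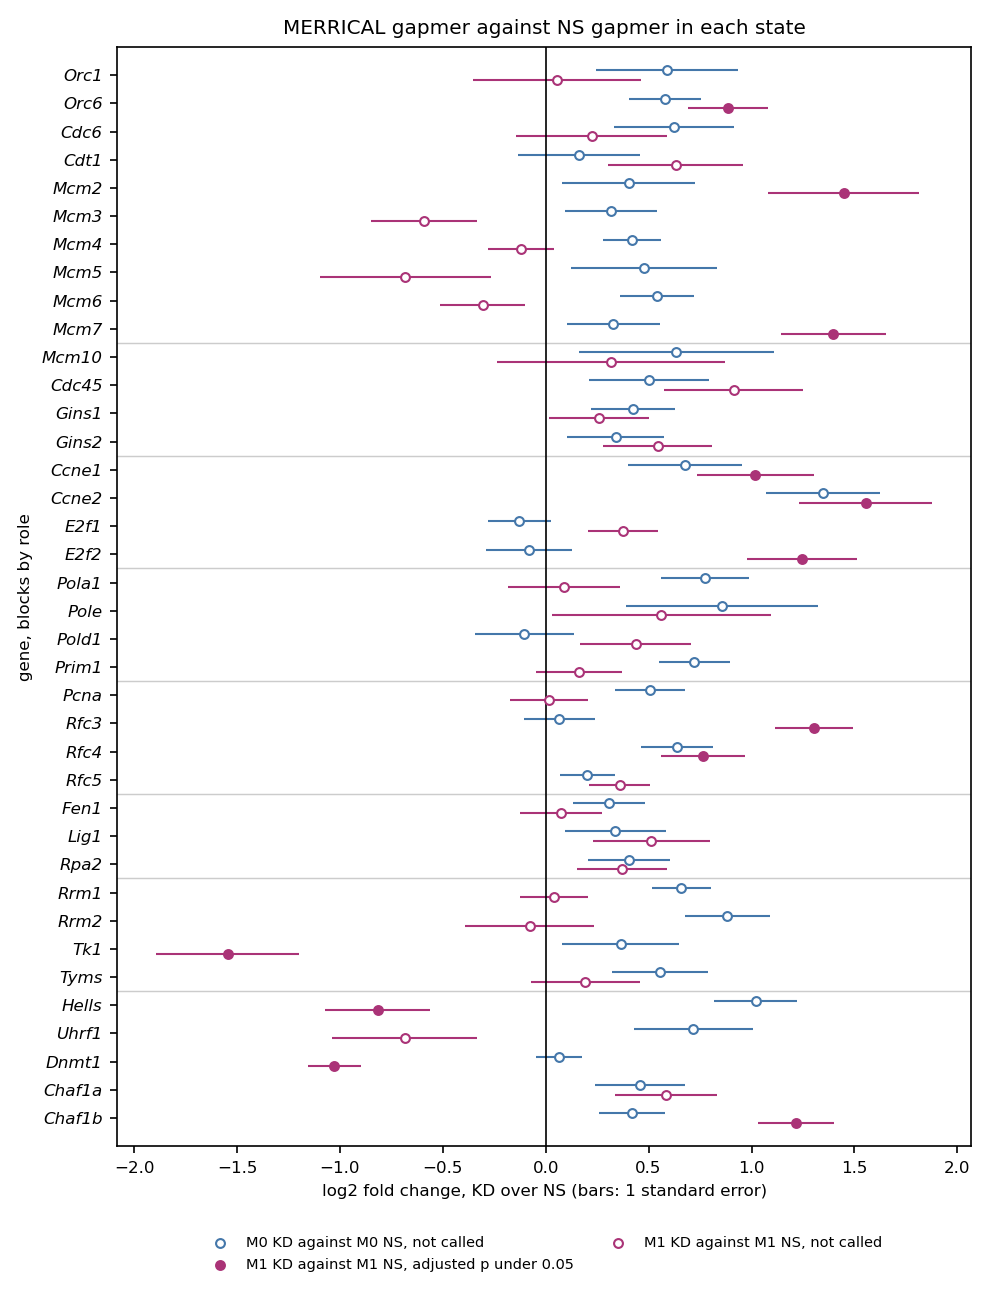
Log2 fold change of the MERRICAL gapmer over the NS gapmer (horizontal axis) in M0 and in M1 cells for the 38 genes (vertical axis, in blocks by role), with bars of 1 standard error and filled points at an adjusted p under 0.05. The M0 points lie mostly above 0 and none is filled, and the M1 points spread to both sides, with 9 filled above 0 and 3 below.

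The difference between the gapmer effects in M1 and in M0 was tested with an interaction term. For 4 of the 38 genes the effect was higher in M1, namely E2f2 (1.33 ± 0.34 SE, adjusted p = 0.0132), Rfc3 (1.24 ± 0.26 SE, adjusted p = 0.00488), Mcm7 (1.07 ± 0.34 SE, adjusted p = 0.0362) and Chaf1b (0.80 ± 0.25 SE, adjusted p = 0.0314). For 5 it was lower, namely Tk1 (-1.91 ± 0.45 SE, adjusted p = 0.00866), Hells (-1.84 ± 0.33 SE, adjusted p = 0.002), Uhrf1 (-1.4 ± 0.46 SE, adjusted p = 0.0391), Dnmt1 (-1.09 ± 0.17 SE, adjusted p = 0.000953) and Mcm6 (-0.85 ± 0.27 SE, adjusted p = 0.0384). Of all genes, 13.1% were called higher and 14.2% lower, in all 27.3%, close to the 9 of 38 here. The difference was above 0 for 17 of the 38 genes and 49.3% of all genes, and its median was -0.2, against -0.017. Chromatin and methylation genes made up 4 of these 9, with Chaf1b on the higher side and Dnmt1, Hells and Uhrf1 on the lower side. For Hells, the gapmer value was 1.02 in M0 and -0.82 in M1, and for Rfc3 0.0668 in M0 and 1.3 in M1. Ccne1 and Ccne2 did not pass this test (0.34 ± 0.40 SE, adjusted p = 0.559 and 0.21 ± 0.42 SE, adjusted p = 0.75).

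Dnmt1, Hells and Rfc3 passed the test of the difference under every alternative run, and the other 6 did not. The Mcm6 call was lost without any one library other than M0 NS 4, M0 KD 1 and M1 NS 4, with values from -0.70 (adjusted p = 0.0924) to -0.92 (adjusted p = 0.0691). The Uhrf1 call was lost without any one library other than the same 3, with values from -1.19 (adjusted p = 0.0787) to -1.56 (adjusted p = 0.0668). Mcm7 was lost without M0 NS 4 (0.82, adjusted p = 0.0838), M0 KD 1 (0.97, adjusted p = 0.0855), M0 KD 2 (1.06, adjusted p = 0.0716), M1 KD 5 (1.09, adjusted p = 0.0839) or M1 KD 6 (1.05, adjusted p = 0.0849). Chaf1b was lost without M0 NS 4, any M0 KD library, M1 NS 1 or M1 KD 5, with values from 0.61 (adjusted p = 0.0635) to 0.85 (adjusted p = 0.0504). Without M1 KD 5, E2f2 (0.77, adjusted p = 0.102) and Tk1 (-1.58, adjusted p = 0.0506) were lost too, which left 1 higher and 2 lower, against 8.44 and 10% of all genes. The median of the 38 genes was then 0.068, on the other side of 0, and it ran from -0.35 to 0.068 over the alternatives. Without M1 NS 4, 5 were higher and 10 lower, against 15.5 and 14.4% of all genes. With library size as the only scaling, which moved the median of all genes by -0.10, 2 were higher and 8 lower, against 10.4 and 16.7% of all genes. With upper-quartile scaling, which moved it by 0.14, 4 were higher and 3 lower, against 16.5 and 11.3%.

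Neighbouring gene lists were counted beside these genes. Of all genes, 26.9% were called higher and 28.6% lower in M1 NS against M0 NS. In M1 KD against M1 NS these shares were 17.6 and 19.2%. In M0 KD against M0 NS, 50.4% of all values were above 0. Of 44 other replication factors, 11 rose and 21 fell in M1 NS against M0 NS (median -0.54), and the 11 are near the share of all genes. None was called in M0 KD against M0 NS, with 35 values above 0 (median 0.27). In M1 KD against M1 NS, 12 rose and 5 fell (median 0.28). Rnaseh2b, a subunit of the enzyme that removes ribonucleotides from DNA, rose in M1 NS (2.03 ± 0.13 SE, adjusted p = 9.62e-08), as did the accessory polymerase subunit genes Pole4 (0.99) and Pold3 (0.75). The replication inhibitor geminin, Gmnn, fell in M1 NS (-1.33 ± 0.13 SE, adjusted p = 4.4e-06), as did Rpa1, the large subunit of RPA (-0.84), whose partner Rpa2 rose. In M1 KD against M1 NS, Rfc2, a further clamp loader subunit, rose (1.35 ± 0.18 SE, adjusted p = 0.000157), as did Rnaseh2a (1.5) and Gmnn (0.87), while Donson, a fork protection factor, fell (-1.64 ± 0.21 SE, adjusted p = 0.000133). The difference of the gapmer effect was called for Rfc2 (1.59) and Donson (-1.86) as well, on opposite sides.

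Of 18 other genes of nucleotide supply and breakdown, 5 rose and 9 fell in M1 NS, against 26.9 and 28.6% of all genes. The 5 are near their share. In M1 KD against M1 NS, 3 rose and 3 fell, near the 17.6 and 19.2% of all genes. Samhd1, the enzyme that breaks down deoxynucleotides, rose in M1 NS (2.17 ± 0.23 SE, adjusted p = 6.54e-06), and so did Cmpk2, a mitochondrial nucleotide kinase induced by interferon (3.82). Dut, which keeps uracil out of DNA, fell in M1 NS (-2.93 ± 0.27 SE, adjusted p = 2.11e-06) and rose in M1 KD against M1 NS (1 ± 0.30 SE, adjusted p = 0.0206). Cad and Umps, genes of pyrimidine synthesis, fell in M1 KD against M1 NS (-0.93 and -0.86).

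Of 24 further G1/S genes tested, 8 rose and 13 fell in M1 NS, against 26.9 and 28.6% of all genes. In M1 KD against M1 NS, 3 rose and 5 fell, near the 17.6 and 19.2% of all genes. Ccna2, the cyclin A of S phase and G2, fell in M1 NS (-4.26 ± 0.28 SE, adjusted p = 1.36e-07), beside the repressor E2f7 (-4.14). Ccnd2, a cyclin D gene, rose (5.56 ± 0.51 SE, adjusted p = 2.21e-06), as did Rbl1, which encodes the pocket protein p107 (2.51). Tfdp2, an E2F dimer partner, fell in M1 NS (-1.85) and rose in M1 KD against M1 NS (1.78 ± 0.16 SE, adjusted p = 1.62e-05). Among 7 inhibitors of cyclin-dependent kinases, Cdkn1a, which encodes p21, rose in M1 NS (1.84 ± 0.19 SE, adjusted p = 6e-06) together with Cdkn2b (3.35) and Cdkn2a (1.76), and Cdkn2c (-3.37) and Cdkn1c (-1.06 ± 0.37 SE, adjusted p = 0.028) fell. Cdkn1c, which encodes p57, rose in M1 KD against M1 NS (2.09 ± 0.40 SE, adjusted p = 0.00185), as did Cdkn2d (0.64), and the difference of the gapmer effect was called for Cdkn1c (2.18).

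Of 28 mitosis genes, 27 fell and 1 rose in M1 NS against M0 NS, with a median of -3.02. The shares of all genes were 28.6% lower and 26.9% higher there, and 19.2 and 17.6% in M1 KD against M1 NS. Cenpf (-4.77 ± 0.25 SE, adjusted p = 2.14e-08), a kinetochore protein gene, and Kif11 (-3.42), a spindle motor gene, were among those that fell, and Tpx2, a spindle assembly factor gene, was the one that rose (1.58). In M0 KD against M0 NS, 27 of the 28 values were above 0, with a median of 0.74 and none called. In M1 KD against M1 NS, 14 rose and none fell (median 0.9), led by Spc25 (3.92 ± 0.23 SE, adjusted p = 1.91e-06), a kinetochore subunit gene, with Plk1 (2.61), a mitotic kinase gene, and Ndc80 (1.85). Summed over the 28 genes, the level was 377 to 523 CPM in M0 NS, 607 to 768 in M0 KD, 128 to 175 in M1 NS and 282 to 305 in M1 KD, so these groups did not overlap. Tpx2 weighs heavily in the M1 sums, averaging 15.9, 26, 47.5 and 130 CPM in the same order. Other genes of the list were low in M1. Cenpf averaged 0.332 CPM in M1 NS and 0.453 in M1 KD, Plk1 0.344 and 2.09, and Spc25 1.01 and 15.6.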

How the data were processed

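Transcripts of 11 mouse macrophage libraries were measured by RNA sequencing. STAR 2.5.2b, Trimmomatic 0.36, featureCounts of Subread 1.5.2 and the build GRCm38 are named, per the submitters' processing notes. The sources used here do not give the strand setting or annotation. The authors deposited a raw count per gene and library, and a normalized signal for 22812 genes, which, checked against the counts, is the count divided by 1 constant per library. The main results use the deposited counts. A blank gene name, at most 0.000305% of a library, was left out. Total counts ran from 30040632 to 43250392, and low genes such as Rrm2 in M1 rest on few counts.

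edgeR 4.0.16 in R 4.3.3 was used with filterByExpr (minimum count 10, minimum total 15), TMM factors (0.825 to 1.19) and a robust quasi-likelihood fit with a coefficient for each of the 4 groups. Libraries were grouped by their titles. Replicates were distinct (chi-square per degree of freedom 13.7 to 150). Exon lengths, which join all annotated exons of a gene, and overlaps came from GENCODE M21 and promoters from RefSeq. Cdc45, Lig1 and Orc1 also share 5.96, 5.79 and 10.8% of their exon bases with genes on the other strand. Alternatives were DESeq2 1.42.0, limma 3.58.1 (voom, and trend on log2 of the deposited signal plus 1), other scalings and filters, the compared groups alone, a replicate block, and each library left out in turn. The test was checked on simulated data in which few genes were changed, which does not cover the scaling where many genes differ.

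The 38 genes, the gene lists and the tests were chosen with earlier results of these data known. All 38 genes may be named. Values in every library are given for the 2 genes of each role with the highest level per length, those called in a gapmer comparison, the 3 with the lowest and the 3 with the highest M1 NS values, and both cyclin E genes. Other lists contribute up to 3 called genes per direction, ranked by p. The promoters with the most sites were to be printed; those whose stretch holds annotated exons (Dnmt1, Mcm7, Rfc3 and others) or whose sites lie after the start (Mcm3) are not printed. Log2 ratios of 1 library to others used CPM plus 0.1.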

Additional observations from a re-analysis of the deposited data

Results flagged for a closer look

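For 9 of the 38 genes the MERRICAL gapmer effect differed between the M1 and M0 states in the edgeR quasi-likelihood test of the difference itself, with Benjamini-Hochberg adjustment over all 15024 genes. The effect in M1 minus that in M0, on the log2 scale, was above 0 for Mcm7 (1.07), E2f2 (1.33), Rfc3 (1.24) and Chaf1b (0.80). It was below 0 for Mcm6 (-0.85), Tk1 (-1.91), Hells (-1.84), Uhrf1 (-1.4) and Dnmt1 (-1.09). The number is near the share of all genes, of which 27.3% differed in the same way. The M1 KD libraries carry other label numbers than the rest, and that cannot be told apart from the gapmer in M1.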

How the results depend on the processing

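Of 3838 values of single genes under the alternatives, 3576 kept their direction and their side of the threshold, 91 lost a call, 107 gained one and 64 changed sign, none of them called in either fit. Calls held under each alternative for 22 of 26 genes in M1 NS against M0 NS, 6 of 12 in M1 KD against M1 NS, 19 of 24 in M1 KD against M0 KD and 3 of 9 in the difference of the gapmer effect. In M0 KD against M0 NS, 7 genes were higher with DESeq2, 8 with no filter and 11 with the M0 groups alone. With library size as the only scaling, 1 gene was higher in M1 NS against M0 NS, and in the difference 2 were higher and 8 lower. The number lower in the difference was 3 with limma-voom, limma-trend or upper-quartile scaling and 8 with no filter, and the number lower in M1 KD against M1 NS was 6 with no filter. Leaving out 1 library at a time gave 1 to 5 higher and 2 to 10 lower in the difference, and 1 to 6 lower in M1 KD against M1 NS. Over all genes, calls in M0 KD against M0 NS numbered 221 with DESeq2, 385 with no filter, 1103 with the M0 groups alone and 1 without M1 NS 4, against 0. In M1 KD against M1 NS they numbered 3104 with the M1 groups alone and 3658 without M1 KD 5, against 5535. The genes' median was -1.22 in M1 NS against M0 NS and -1.31 in M1 KD against M0 KD with library size only, -1.15 in the latter without M1 KD 6, and 0.068 in the difference without M1 KD 5. The cause was not tested.

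Values that changed sign were all uncalled. In M1 KD against M0 KD, Chaf1b was 0.013 with DESeq2, 0.013 with RLE scaling, 0.00602 with limma-trend and 0.025 with the compared groups alone, Pold1 was 0.0061 with those groups alone, and Orc6 (-0.28) and Gins2 (-0.41) turned with library size only. That scaling also turned Cdt1 in M1 NS against M0 NS (-0.24) and Pcna in M1 KD against M1 NS (-0.017). Upper-quartile scaling turned Rrm2 (0.072) and Mcm4 (0.028) in M1 KD against M1 NS. Rpa2 in the difference was 0.0067 with DESeq2, 0.0068 with RLE and 0.11 with upper-quartile scaling. Leaving out 1 library turned 32 values, given as lowest to highest. In M1 NS against M0 NS these were Cdt1 (-0.0272 to 0.43), Gins2 (-0.32 to 0.16), Orc1 (-0.57 to 0.0385), Orc6 (-0.17 to 0.00612), Pcna (-0.18 to 0.11), Tk1 (-0.46 to 0.18). In M0 KD against M0 NS these were E2f2 (-0.18 to 0.000438), Pold1 (-0.23 to 0.0808), Rfc3 (-0.0329 to 0.12). In M1 KD against M1 NS these were Cdc6 (-0.0372 to 0.51), Cdt1 (-0.0341 to 1.08), Fen1 (-0.0801 to 0.21), Mcm10 (-0.46 to 0.83), Orc1 (-0.19 to 0.37), Pcna (-0.11 to 0.13), Pola1 (-0.27 to 0.41), Pole (-0.13 to 1.03), Rrm1 (-0.0848 to 0.15), Rrm2 (-0.17 to 0.0453). In M1 KD against M0 KD these were Cdt1 (-0.0338 to 1.08), Chaf1b (-0.15 to 0.00905), Gins2 (-0.0164 to 0.16), Orc6 (-0.00189 to 0.40). In the difference of the gapmer effect these were Ccne2 (-0.11 to 0.58), Cdt1 (-0.19 to 0.92), Chaf1a (-0.0384 to 0.35), Gins1 (-0.39 to 0.0377), Gins2 (-0.0318 to 0.40), Lig1 (-0.0807 to 0.35), Mcm10 (-1.09 to 0.20), Pole (-0.97 to 0.18), Rpa2 (-0.32 to 0.20).

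Same-numbered libraries had deviations correlated between -0.11 and 0.14 over M0 NS, M0 KD and M1 NS. Between M0 NS and M0 KD alone, libraries numbered 1, 2 and 4 gave 0.14, 0.022 and 0.12. Differently numbered libraries of these groups gave -0.13 to 0.032. Whether the numbers pair the M0 libraries is therefore not settled, and no pairing is shown with M1 NS. With the replicate block in the 9 libraries numbered 1, 2 and 4, 3 genes were higher and 22 lower in M1 NS against M0 NS, and 0 were called in M0 KD against M0 NS. No paired analysis was possible because M1 KD shares no number with the other groups, for the comparisons that include it. The compared groups alone were not fitted for the difference, which uses all 4 groups. Genes such as Ccne2 and Rrm2 in M1 NS rest on as few as 16 and 26 counts.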
